A study of Mus musculus with 3 samples.

Results

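The autophagy machinery genes examined here are 33 genes that encode the core proteins of autophagosome formation, the 5 Atg8-family proteins measured here and the cargo receptor p62. They were taken from a list of mouse gene symbols, and all 33 were found among the 50600 annotated genes of the count tables. The series is total RNA-seq of T-helper 1 (Th1) cells of C57BL/6NJ mice, a CD4 subset known for interferon gamma production. Its 1 group has 3 libraries, replicates 1, 2 and 3, whose labels name different biosamples but a shared donor identifier. The labels give age and developmental stage as unknown and sex as not collected, and the header of each count table carries a time of 0 hours. No genotype change or treatment beyond the cell type label was given, and a single group allows no test of a condition. Values between libraries measure only the spread of these 3 libraries.

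Autophagy encloses cytoplasm, damaged organelles or tagged proteins in a double membrane that fuses with the lysosome. The ULK1 kinase complex starts the process, a lipid kinase complex built on VPS34 and Beclin 1 marks the membrane with PI3P, and ATG9 vesicles with ATG2 supply lipid. A pair of ubiquitin-like conjugation reactions then attaches LC3 and GABARAP proteins to the membrane, where receptors such as p62 bring cargo. In T cells autophagy is known for clearing mitochondria and supporting the survival of naive and memory cells.

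Replicates 1, 2 and 3 had totals of 3647366, 4305077 and 2510319 counts, of which the 33 genes took 9500, 11071 and 7382. All 14 T cell markers and all 7 naive T cell markers reached 1 TPM (a level scaled by gene length and library total) in each library, with summed levels of 1834 to 5908 TPM for the T cell list. Of the 8 Th1 markers 3 did (Il18r1, Stat4 and Il12rb2, whose exons overlap Serbp1), and the list summed to 32.4 to 78.8 TPM. Tbx21 and Ifng had 4 counts each over all libraries and Cxcr3 had 0. The labelled Th1 state is thus not shown by its defining transcripts. Of other cell types, B cell markers summed to 123 to 401 TPM (2 of 7 at 1 TPM or more in each library, Igkc, Ms4a1 and Pax5 at 0), myeloid and dendritic markers to 76.2 to 112 TPM (3 of 8, Adgre1 at 0), cytotoxic T and NK markers to 12.8 to 37.9 TPM (2 of 6, Klrb1c at 0) and stromal markers to 22.2 to 72.9 TPM (1 of 5, Col1a2 at 0). Single genes made up most of these sums: Ighm with Cd79a for B cells (73.5 to 352 TPM for Ighm), Csf1r, whose exons overlap Hmgxb3, for myeloid cells (66.7 to 95.8 TPM) and Pecam1 for stromal cells (22.2 to 71.1 TPM). All 5 erythroid and platelet markers had 0 counts. The part of other cells in the levels below was not tested, and in bulk RNA fewer cells of a type and less RNA per cell cannot be told apart.

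Fragments were counted with strand setting 1 of featureCounts. Genes whose exons overlap exons of the other strand held 63.1%, 53.8% and 76.5% of the counts in replicates 1, 2 and 3. Whether the counted strand was the strand of the transcripts was not tested. If it was not, the counts of a gene would be fragments of the other orientation. The marker levels above, and the levels, ranks and ratios below, would then not be those of the transcripts. For this reason the members were classed by their strand surroundings, and genes that overlap their exons are named below. Neighbours without exon overlap are named for some members only. Of the 33 genes, 9 have exons that overlap an exon of the other strand (Rb1cc1, Becn1, Uvrag, Atg9a, Atg4d, Atg16l2, Map1lc3b, Gabarapl1 and Sqstm1), 14 have a gene of the other strand within 5 kb and 10 have none.

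Most of the autophagy genes were present in each library. Of the 33, 29 reached 1 TPM in every library, where 41.6% of all protein-coding genes and 68.3% of the 13235 with a count did, and 14 of 33 reached 5 TPM, where 41.5% did. The median member stood at 8.57, 13.2 and 4.30 TPM in replicates 1, 2 and 3 (mean 8.68 ± 4.44 TPM, SD, n = 3), against 7.05, 10.2 and 3.57 TPM for protein-coding genes with a count. The 4 genes below 1 TPM in a library were Atg10, Atg4c, Map1lc3a and Gabarapl1. The highest levels were those of the protease gene Atg4d, Sqstm1, the E1-like enzyme gene Atg7 and Gabarap. In the order of mean levels, 7 of the 32 neighbouring pairs kept their order in all 3 libraries, among them Atg4d above Sqstm1, Gabarap above Becn1 and Atg3 above Atg13, so most neighbours in the order did not differ beyond the spread between libraries.

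**Figure D1:**
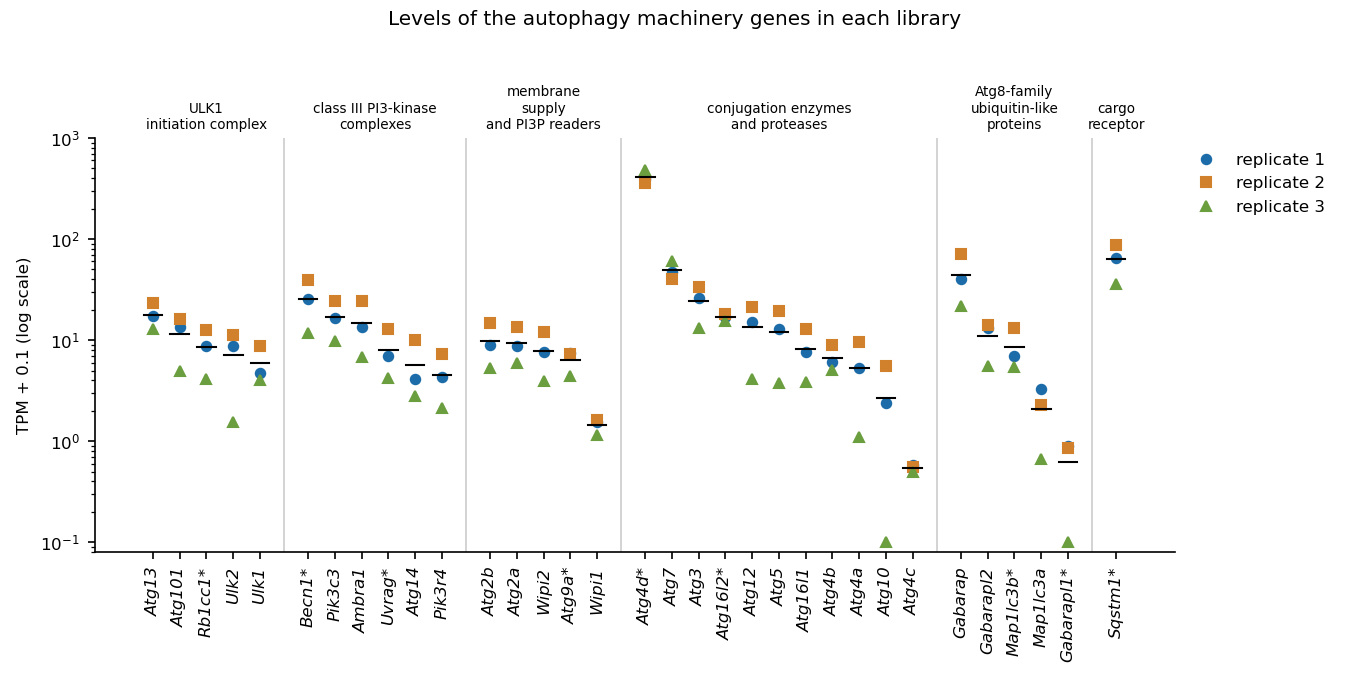
Levels of the 33 autophagy genes, grouped by role, as TPM + 0.1 on a log axis. Each symbol is 1 library, the black line is the mean of the 3 libraries, an asterisk marks exons that overlap the other strand, and points at the bottom edge are genes with 0 counts in that library. Replicate 3 is the lowest for 31 genes, and Atg4d and Atg7 are the exceptions.

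The ULK1 initiation complex was represented by all 5 of its genes, each above 1 TPM in each library. Atg13, the regulatory subunit that links the kinase to nutrient signals, had the highest level of the complex with 17.0, 23.4 and 12.7 TPM in replicates 1, 2 and 3 (mean 17.7 ± 5.36 TPM, n = 3; 140, 200 and 83 counts). Atg101, the small partner that stabilises ATG13, stood at 13.4, 16.2 and 4.90 TPM (11.5 ± 5.88 TPM). Rb1cc1, the scaffold protein also called FIP200, stood at 8.57, 12.5 and 4.05 TPM, and its exons share 558 bases with the antisense feature 4732440D04Rik. Each of these genes was highest in replicate 2 and lowest in replicate 3 by TPM.

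The kinase genes Ulk1 and Ulk2 changed order between libraries. Ulk1 (chromosome 5, 110784488 to 110810097, minus strand, mm10) stood at 4.67, 8.73 and 3.92 TPM from 57, 111 and 38 counts. Ulk2 (chromosome 11, 61775649 to 61855073, minus strand) stood at 8.62, 11.1 and 1.46 TPM from 97, 130 and 13 counts. Ulk2 was thus above Ulk1 in replicates 1 and 2 and below it in replicate 3, and the log2 ratio of Ulk1 to Ulk2 averaged 0.052 ± 1.17 (SD, n = 3), within the spread between libraries. Over the summed counts Ulk1 had 0.79 times the counts per base of Ulk2 (95% exact interval 0.65 to 0.96, counting error only).

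The genes of the lipid kinase complexes were all present, with Becn1 as the highest. Becn1 encodes Beclin 1, the shared scaffold of the complexes (chromosome 11, 101285952 to 101302286, minus strand), and stood at 25.4, 39.1 and 11.7 TPM (25.4 ± 13.7 TPM, n = 3) from 338, 541 and 123 counts. Of the exonic bases of Becn1, 43.9% overlap exons of Cntd1 on the other strand. Pik3c3, the catalytic subunit VPS34, stood at 16.4, 24.5 and 9.59 TPM (16.8 ± 7.44 TPM). Pik3r4, the VPS15 subunit that anchors it, was lower at 4.18, 7.19 and 2.01 TPM. Becn1 exceeded Pik3r4 by a log2 ratio of 2.58, 2.43 and 2.48 in replicates 1, 2 and 3 (2.49 ± 0.076, n = 3), the second narrowest spread of the 19 gene ratios examined. Pik3r4 had only 29 counts in replicate 3, so this narrow spread does not show a constant ratio.

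Atg14 and Uvrag encode the alternative subunits that direct the complex to autophagosome formation or to later endosomal steps. Atg14 stood at 4.00, 9.91 and 2.72 TPM and Uvrag at 6.94, 12.9 and 4.07 TPM. Uvrag was the higher in all 3 libraries, with a log2 ratio of Atg14 to Uvrag of −0.57 ± 0.20 (n = 3). Ambra1, an activator of Beclin 1, stood at 13.5, 24.2 and 6.78 TPM (14.8 ± 8.78 TPM). Replicate 2 was again the highest library and replicate 3 the lowest for all 6 genes of these complexes.

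Of the membrane supply and PI3P reader genes, Atg2a and Atg2b, which encode lipid transfer proteins, had levels within the spread between libraries. Atg2a stood at 8.56, 13.3 and 5.83 TPM and Atg2b at 8.93, 14.8 and 5.20 TPM, and their log2 ratio was −0.014 ± 0.16 (n = 3). Wipi2, the PI3P reader that recruits ATG16L1, stood at 7.51, 11.96 and 3.81 TPM. Its paralog Wipi1 stood at 1.45, 1.505 and 1.06 TPM from 12, 13 and 7 counts. Wipi2 had 5.96 times the counts per base of Wipi1 over the 3 libraries (95% exact Clopper-Pearson interval 4.16 to 8.82, counting error only). Atg9a, the membrane protein of the ATG9 vesicles, stood at 7.28, 7.26 and 4.30 TPM and shares 46 exonic bases with Ankzf1.

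Among the conjugation enzymes, the genes of the E1 and of the LC3 E2 had high levels and that of the ATG12 E2 a low one. Atg7, the E1-like enzyme of both conjugation reactions (chromosome 6, 114643097 to 114860614, plus strand), stood at 47.0, 40.5 and 59.9 TPM (49.1 ± 9.89 TPM, n = 3) from 616, 553 and 624 counts. Atg3, the E2-like enzyme for LC3, stood at 25.8, 33.5 and 12.9 TPM (24.1 ± 10.4 TPM). Atg10, the E2-like enzyme for ATG12, had 7, 17 and 0 counts, or 2.31 and 5.39 TPM in replicates 1 and 2 and none in replicate 3, where 3 counts would be 1.25 TPM. Atg3 had 8.95 times the counts per base of Atg10 (95% exact interval 5.93 to 14.1, counting error only). Their mean log2 ratio of TPM + 0.1 was 4.35, and 3.02 without replicate 3.

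Atg12 and Atg5 encode a pair of proteins that are joined into 1 conjugate, and their levels were close. Atg12 stood at 14.9, 21.1 and 4.03 TPM (13.3 ± 8.64 TPM) and Atg5 at 12.9, 19.1 and 3.70 TPM (11.9 ± 7.75 TPM). Their log2 ratio, Atg5 to Atg12, was −0.21, −0.14 and −0.12, the narrowest spread of the ratios examined, with Atg12 slightly higher in each library. By counts alone the interval of this ratio held 1 (0.89, 95% exact interval 0.72 to 1.11). In replicate 3 Atg5 had 13 and Atg12 had 15 counts, so the narrow spread does not show a constant ratio. Atg16l1, which completes the E3-like complex with that conjugate, stood at 7.56, 12.7 and 3.75 TPM. Its paralog Atg16l2 stood at 16.8, 18.0 and 15.3 TPM (16.7 ± 1.32 TPM), and was above Atg16l1 in each library. Atg16l2 shares 25 exonic bases with Fchsd2, and Atg16l1 has no gene of the other strand within 5 kb.

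The start sites of the members were searched for letters bound by known regulators of autophagy and stress genes, because the palindrome CACGTG is the core of the site read by TFEB and TFE3, the regulators of lysosomal and autophagy genes. RefSeq promoter windows (GRCm38.p6, 250 bases before to 50 after the start) matched 27 of the 33 genes; Rb1cc1, Becn1, Pik3c3, Atg12, Atg16l1 and Map1lc3a had no entry. CACGTG, the same on both strands, was present for 4 of these 27 genes (14.8%), against 8.09% of the 27025 genes with a window. The longer TCACGTGA, which contains it, was present for Atg3 alone among the members and for 1.12% of all genes. TGACNNNGC, the core of sites for NRF2, an inducer of Sqstm1, was found on either strand for Ulk2, Atg13 and Map1lc3b (11.1%, against 14% of all genes), and TGTTTAC, a FOXO site, for 0 of 27 (4.05% of all genes). The stretches around CACGTG are shown for the 4 genes, 5′ to 3′ on the gene's strand with the motif in capitals, because these are the members that hold it.
Atg3: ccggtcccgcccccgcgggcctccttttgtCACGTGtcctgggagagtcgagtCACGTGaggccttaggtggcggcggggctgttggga
Atg5: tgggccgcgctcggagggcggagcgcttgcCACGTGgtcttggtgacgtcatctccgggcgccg
Atg7: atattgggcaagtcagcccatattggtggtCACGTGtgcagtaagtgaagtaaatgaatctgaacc
Atg14: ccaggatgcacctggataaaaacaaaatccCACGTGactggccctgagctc

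These stretches lie at chr16:45158705-45158793 (plus strand) for Atg3, chr10:44268295-44268358 (plus strand) for Atg5, chr6:114670934-114670999 (plus strand) for Atg7 and chr14:47568415-47568465 (minus strand) for Atg14. The motif begins 94 and 71 bases before the annotated start of Atg3, 14 bases before that of Atg5, 132 before that of Atg7 and 1 before that of Atg14. The RefSeq starts of Atg7 and Atg3 lie inside the gene spans of the count tables, so they are not the outermost starts of these genes. The span of Atg3 starts at 45158785, within the stretch shown. That of Atg7 starts at 114643097, far before its stretch, so the Atg7 motif lies well inside the gene. No other window was available for Atg7. These matches describe letters only. The levels of the 4 genes ranged from 5.54 TPM for Atg14 to 49.1 TPM for Atg7.

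The ATG4 proteases trim LC3 and GABARAP proteins before conjugation and release them from membranes afterwards. Atg4d (chromosome 9, 21265293 to 21277772, plus strand) had 5413, 5114 and 5205 counts, or 396, 359 and 480 TPM (412 ± 61.6 TPM, n = 3). It alone held 57%, 46.2% and 70.5% of the counts of the 33 genes, and its mean level lay above that of 99% of protein-coding genes with a count. Atg4b, regarded as the main LC3 protease, stood at 5.97, 8.82 and 4.93 TPM, Atg4a at 5.19, 9.40 and 1.01 TPM, and Atg4c had 3, 3 and 2 counts. Per base over the summed counts, Atg4d had 60.4 times the counts of Atg4b (95% exact interval 53.8 to 67.9). It had 907 times those of Atg4c (460 to 2102). These intervals cover counting error only. Between libraries the log2 ratio of Atg4b to Atg4d was −6.03, −5.33 and −6.575 in replicates 1, 2 and 3 (SD 0.62, n = 3). Atg4d shares 1405 exonic bases, 19.3% of its exons, with Kri1 on the other strand, and the part of Kri1 in the counts of Atg4d was not tested.

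Of the Atg8-family genes Gabarap had the highest level. Gabarap (chromosome 11, 69991143 to 69994951, plus strand), with no gene of the other strand within 5 kb, stood at 40.0, 71.1 and 21.4 TPM (44.2 ± 25.1 TPM, n = 3) from 139, 257 and 59 counts. Gabarapl2, also called GATE-16, stood at 13.02, 14.1 and 5.47 TPM (10.9 ± 4.69 TPM) and Map1lc3b, the LC3B gene used as the standard autophagosome marker, at 6.93, 13.2 and 5.34 TPM (8.48 ± 4.14 TPM). Map1lc3a had 7, 5 and 1 counts, and Gabarapl1 had 3, 3 and 0 counts. Gabarap was the highest and Map1lc3a and Gabarapl1 were the lowest members of the family in each library.

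Within that family the directions of the ratios held in all 3 libraries, while their sizes varied. The log2 ratio had an SD of 0.28 for Map1lc3b to Gabarap and 0.36 for Gabarap to Gabarapl2. It was larger for Map1lc3a to Map1lc3b (0.998) and Gabarap to Gabarapl1 (1.14). The ratios that follow are over the summed counts, and their intervals cover counting error only. Gabarap had 4.10 times the counts per base of Gabarapl2 (95% exact interval 3.38 to 4.99) and 82.8 times those of Gabarapl1 (37.7 to 227). Gabarap exceeded Map1lc3b by 5.27 times per base (4.58 to 6.07), and Map1lc3b exceeded Map1lc3a by 4.25 times (2.46 to 8.07). The exons of Map1lc3b share 58 bases with Zcchc14, which had 6, 4 and 2 counts. Gabarapl1 shares 570 bases with 1700101I11Rik, a feature with 10, 14 and 32 counts.

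Sqstm1 encodes p62, which binds ubiquitin-tagged cargo and LC3 (chromosome 11, 50199366 to 50210827, minus strand). It stood at 64.3, 88.2 and 36.1 TPM (62.9 ± 26.1 TPM, n = 3) from 406, 580 and 181 counts, and its mean lay above that of 91.8% of protein-coding genes with a count. Its exons share 580 bases with Mrnip on the other strand, which had 10, 20 and 16 counts. Like Gabarap, it was highest in replicate 2 and lowest in replicate 3 by TPM.

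Of the 19 ratios between paralogs (12) and partners (7), 16 had 1 direction in all 3 libraries. An exact sign-flip test over 3 libraries cannot go below p = 0.25, so no ratio could pass, and the smallest adjusted p over the 19 ratios was 0.297 (exact test, two-sided, Benjamini-Hochberg). The 3 without a direction were Ulk1 to Ulk2, Atg2a to Atg2b, and Atg4a to Atg4b (−0.76 ± 1.24, n = 3). In the ULK1 complex Atg13 exceeded Atg101 by a log2 ratio of 0.74 ± 0.54 and Rb1cc1 by 1.17 ± 0.40 per base, although Rb1cc1 had more counts (687 against 423 in all). Becn1 exceeded Pik3c3 by 0.53 ± 0.22. Atg16l2 exceeded Atg16l1 by 2.01 times per base over the summed counts (95% exact interval 1.78 to 2.26, counting error only). Between libraries the log2 ratio of Atg16l1 to Atg16l2 was −1.21 ± 0.75 (n = 3).

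**Figure D2:**
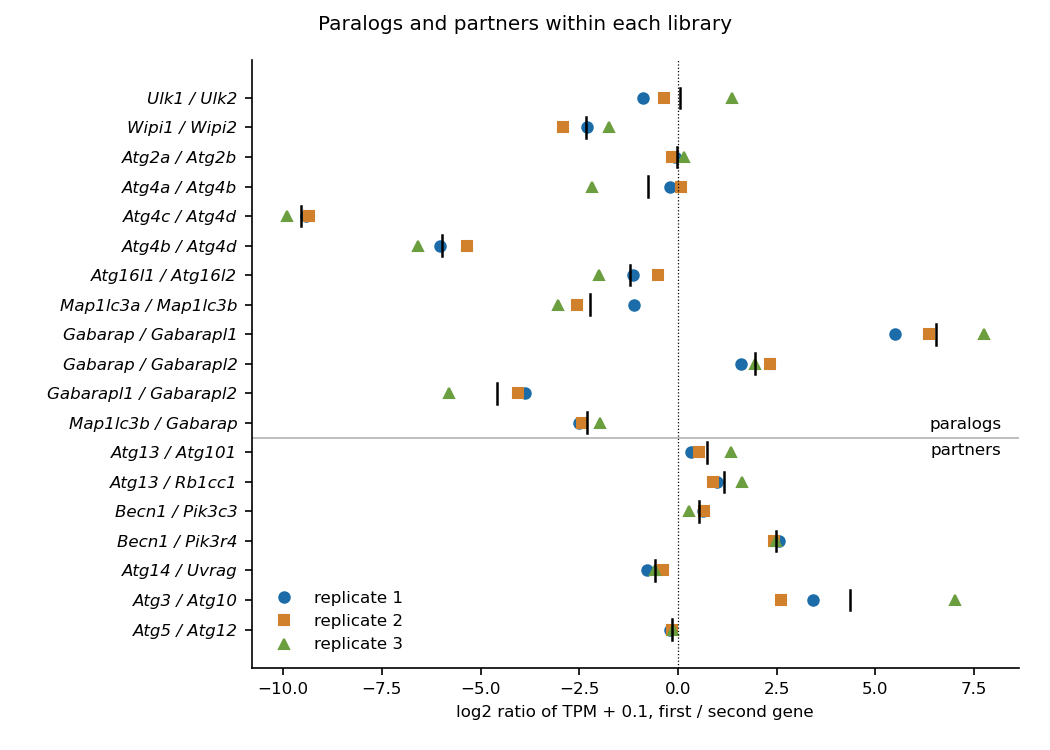
Log2 ratio of TPM + 0.1 of the first to the second gene of each pair, with 1 symbol per library and a black bar at the mean. The ratios of Ulk1 to Ulk2, Atg2a to Atg2b and Atg4a to Atg4b lie on both sides of 0, and the other 16 lie on 1 side.

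Directions between libraries depended on the scaling. By TPM, 31 of the 33 genes were lowest in replicate 3 and 2 highest, where 71.3% and 13.4% of protein-coding genes with a count were. With TPM over protein-coding genes only, 27 were lowest and 4 highest (65.3% and 19.1% of those genes). With TMM (trimmed mean of M-values) scaling 21 were lowest and 7 highest (51.5% and 30.3%), and with DESeq2 size factors 21 and 9 (49.1% and 32.6%). With TPM over protein-coding genes without exon overlap 16 were lowest and 13 highest (44.6% and 36.6%), and with TMM over genes without exon overlap 14 and 13 (40.1% and 40.9%). Counts were therefore compared directly, as the log2 ratio of replicate 3 to replicate 2, and set against that of all genes with at least 30 counts over the libraries. The median of this count ratio was −1.89 over the 29 members with at least 30 counts and −1.70 over all 12061 genes. It was −0.58 over all genes with exon overlap, −1.86 over those with a gene of the other strand within 5 kb and −2.06 over those with none.

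Members with no gene of the other strand within 5 kb were set against the median count ratio of their class. Of these 9 members with 30 counts or more, 7 had a 95% exact interval that held the class median, among them Gabarap (−2.12), Atg16l1 (−2.15) and Pik3c3 (−1.74). Ulk2 lay below it at −3.32 (interval −4.27 to −2.50) and Atg2a above it at −1.59 (−2.01 to −1.18). Of the 8 members with exon overlap, 5 lay below the median of their class: Rb1cc1, Becn1, Uvrag, Map1lc3b and Sqstm1, between −2.14 and −1.68. Of the 12 members with a neighbour, Atg4a and Atg12 lay below the median and Atg13, Atg4b and Atg7 above it. The share of all genes whose interval holds the median of their class was not computed. Wide intervals hold it readily, so these counts are descriptions only.

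Atg4d and Atg7 had nearly the same counts in all 3 libraries, unlike the other members. Both were picked out once their values were known. The log2 count ratio of replicate 3 to replicate 2 was 0.025 for Atg4d (95% exact interval −0.031 to 0.081) and 0.17 for Atg7 (0.007 to 0.34). Of the 29 members they were the only ones above −0.5, where 26.3% of all genes lay, 48.5% of genes with exon overlap, 16.5% of genes with a neighbour and 5.99% of genes with none. Atg16l2 was next at −0.62 (−0.89 to −0.35). Each of these 3 has an annotated gene of the other strand at or over its 3′ end, as do Becn1, Sqstm1 and Map1lc3b with ratios between −2.14 and −1.68. Wipi1, whose 3′ end abuts that of Arsg, had −0.89 (−2.46 to 0.54) from 12, 13 and 7 counts. Pik3r4, whose 3′ end lies 151 bases from Col6a6, had −2.23. Whether this position bears on the ratio was not tested.

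**Figure D3:**
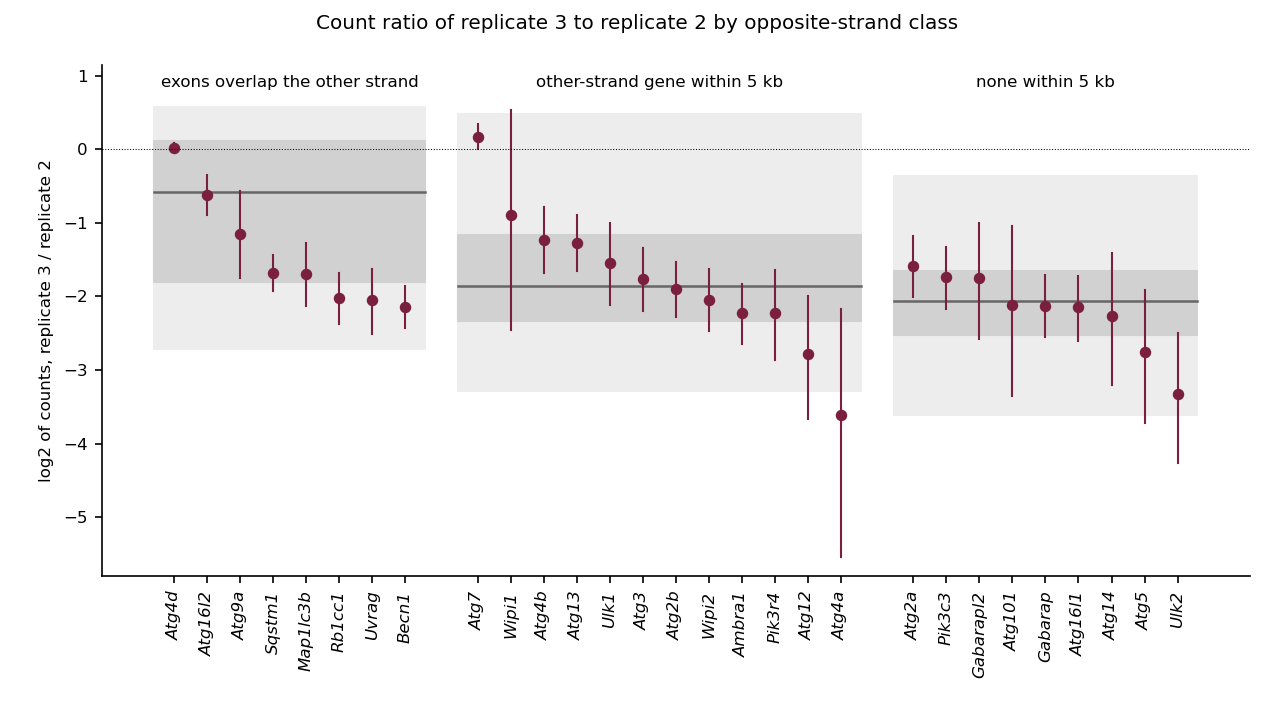
Log2 ratio of the counts of replicate 3 to replicate 2 for the 29 members with at least 30 counts, in 3 classes by what lies on the other strand. Points are members with their 95% exact interval, the grey line is the median of all genes of the class, and the dark and light bands span its central 50% and 90%. Atg4d and Atg7 lie near 0 and most others near −2.

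Counts on the other strand differed in kind between these loci. Kri1, opposite the end of Atg4d, had 866, 1019 and 648 counts, and Atg4d had 3.60, 2.89 and 4.62 times its counts per base in replicates 1, 2 and 3. Vgll4 ends 13 bases from the end of Atg7 on the other strand and had 105, 128 and 49 counts. Fchsd2, opposite the end of Atg16l2, had 236, 282 and 150 counts. In these 3 loci the member had more counts per base than its neighbour in each library, and the neighbour was lowest in replicate 3.

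The loci of Becn1 and Uvrag showed the reverse order. Cntd1, a gene named for its cyclin-like domain, has 70.2% of its exonic bases (3104 bases) inside exons of Becn1 on the other strand. It had 4043, 3402 and 4067 counts against 338, 541 and 123 for Becn1, and the log2 ratio of its counts (replicate 3 over 2) was 0.26 (95% exact interval 0.19 to 0.32), against −2.14 for Becn1. The antisense feature Gm45187, with 50.7% of its exonic bases inside exons of Uvrag, had 380, 294 and 373 counts against 118, 228 and 55 for Uvrag. Becn1 had 0.052, 0.10 and 0.019 times the counts per base of Cntd1. In both loci the feature inside the member's exons had more counts than the member, with the lowest count in replicate 2, the library in which the member was highest. Whether the counts of these features come from the member's transcripts was not tested.

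**Figure D4:**
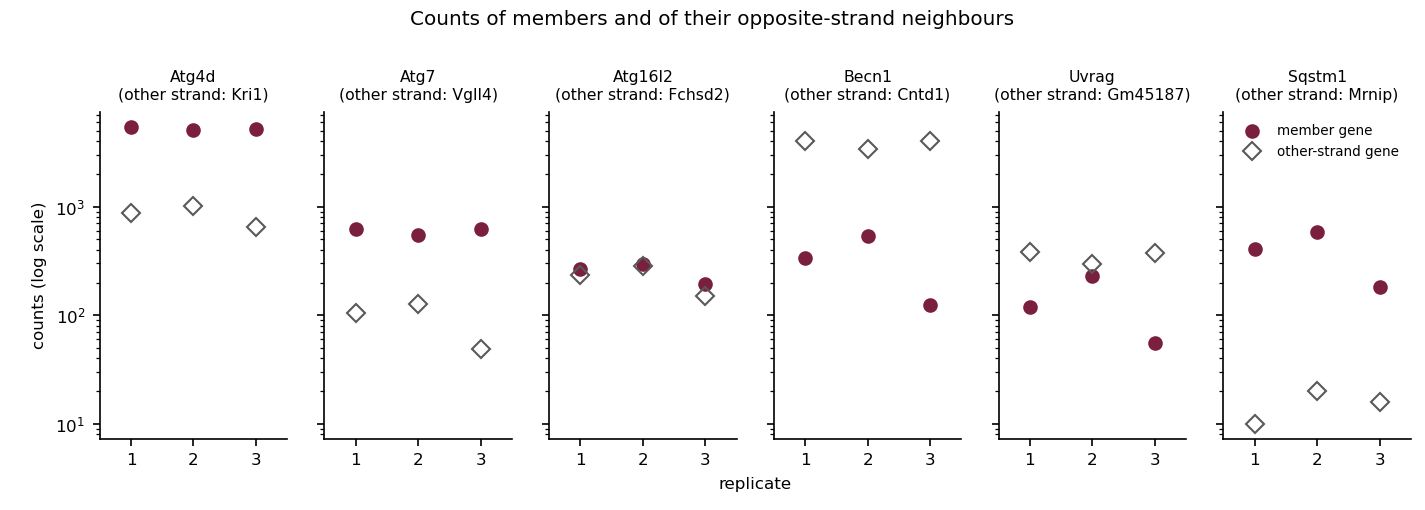
Counts (log axis) of 6 members, filled circles, and of the gene on the other strand, open diamonds, by replicate. Atg4d, Atg7 and Sqstm1 lie above their neighbours in each library, Atg16l2 lies slightly above Fchsd2, and Becn1 and Uvrag lie below the features inside their exons.

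A Poisson chi-square test of the 3 libraries against counting error, on TMM-scaled counts, called 14 of the 28 members that passed the filter on low counts at a Benjamini-Hochberg adjusted p under 0.05, where 62.4% of the 10662 genes tested were called. The test sets the spread between 3 separate biosamples against counting error alone, so a well-counted gene is called readily, and a call describes these libraries only. Of the 28, 9 were called and lowest in replicate 3 (27.3% of all genes tested, and 43.7% of all genes called): Ulk2, Rb1cc1, Becn1, Uvrag, Ambra1, Atg5, Atg12, Atg16l1 and Gabarap. The 3 called and highest in replicate 3 (32.0% of all genes tested, and 51.4% of those called) were Atg4d, Atg7 and Atg16l2. Atg7 had 161.5, 102.5 and 337.9 CPM (counts scaled to library size) on this scale and Atg16l2 had 70, 55.25 and 105 CPM. Atg4d and Atg7 were highest in replicate 3 also by TPM, while Atg16l2 was then lowest there. Ulk2 had 25.4, 24.1 and 7.04 CPM. Atg14 and Map1lc3b were also called and were highest in replicate 2 and lowest in replicate 1.

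By class, 6 of 8 members with exon overlap were called (74.7% of all such genes), 3 of 11 with a neighbour (54.3%) and 5 of 9 with none (52.7%). Of the 8 with exon overlap, 3 were called and lowest in replicate 3 (15.3% of such genes) and 2 called and highest there (57.5%). Of the 11 with a neighbour, 2 were called and lowest in replicate 3 (31.7% of such genes) and 1 called and highest there (18.6%). Of the 9 with none, 4 were called and lowest in replicate 3 (41.3% of such genes). Called and highest there were 0 of the 9 (7.65% of such genes). Sqstm1, with 106.4, 107.5 and 98 CPM, did not pass the test (adjusted p = 0.596, Poisson chi-square test), nor did Atg3, Atg13, Pik3c3 or Gabarapl2. The calls depended on the scaling. With TMM factors computed over genes without exon overlap 7 members were called (53.6% of all genes), namely Ulk2, Atg4d, Atg7, Atg16l2, Atg13, Atg9a and Atg4b, and Ulk2, Atg4d, Atg7 and Atg16l2 were the 4 members called under TMM, DESeq2 and this scaling alike. Without a filter on low counts 18 of 33 members were called (42.6% of all genes). Leaving out replicate 1 gave 12 of 27 members (60.8%), leaving out replicate 2 gave 7 of 27 (49.7%) and leaving out replicate 3 gave 8 of 29 (28.1%).

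The rest of the pathway was read from 4 further gene lists, which share no gene with the 33. Autophagy cargo receptors other than Sqstm1 reached 1 TPM in each library for 20 of 24 genes, further autophagosome formation and fusion genes for 21 of 24, lysosome genes and their regulators for 29 of 34, and mTORC1, AMPK and nutrient sensing genes for 32 of 44 matched (Samtor had no match by symbol). The median genes of these lists stood at 14.5 ± 6.39, 9.36 ± 5.39, 14.7 ± 8.04 and 11.6 ± 6.40 TPM (SD, n = 3), against 8.68 ± 4.44 TPM for the 33 genes. The test between libraries called 11 of 19, 8 of 21, 18 of 28 and 20 of 35 tested genes of these lists, against 62.4% of all genes. Of those called, 8, 8, 14 and 11 were lowest in replicate 3 (43.7% of all genes called) and 2, 0, 3 and 6 were highest there (51.4%), directions that depend on the scaling as for the members.

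Of the cargo receptors, Retreg1, a receptor for the endoplasmic reticulum, stood at 46.2, 71.2 and 26.4 TPM. Fkbp8, a mitochondrial receptor, stood at 46.3, 71.0 and 21.4 TPM and Sec62, another receptor of the endoplasmic reticulum, at 54.1, 56.6 and 26.7 TPM, both with exon overlap. These 3 had the highest means, and their order changed between libraries. Sqstm1 at 62.9 ± 26.1 TPM had a higher mean than each of them. Stbd1 and Wdfy3 had 0 counts in all 3 libraries. Among formation and fusion genes Rab7, the GTPase of late endosomes, had the highest mean, with 64.9, 90.2 and 33.1 TPM (exon overlap), followed by Tecpr1, which links autophagosomes to lysosomes, with 58.4, 86.6 and 31.0 TPM, and Vps16, a subunit of the HOPS tethering complex, with 37.6, 56.0 and 22.8 TPM (exon overlap). Rubcnl had 0 counts.

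Of the lysosome genes, Npc2, which carries cholesterol, stood at 121, 199 and 49.0 TPM, the protease gene Ctss at 107, 189 and 55.7 TPM and Psap, which encodes prosaposin, at 112, 163 and 52.2 TPM. Of the regulators, Tfeb stood at 3.19, 3.78 and 2.13 TPM, Tfe3 at 3.16, 4.24 and 1.52 TPM and Mitf at 5, 7 and 1 counts. They were far lower than these 3 highest genes, and also below the median gene of the list (14.7 ± 8.04 TPM). Some lysosome genes of the list had means below that of Tfeb as well. Cd63 had 0 counts. Of the nutrient sensing genes, Tsc2, a brake on mTORC1, stood at 96.0, 100.1 and 137 TPM, with exons that overlap Pkd1, the Ragulator subunit gene Lamtor4 at 55.1, 73.7 and 84.8 TPM, and Prkag1, an AMPK subunit, at 44.1, 86.6 and 36.4 TPM with exon overlap. Mtor itself stood at 7.04, 10.4 and 3.05 TPM, and Prkaa2 had 0 counts, against 14.2, 21.6 and 6.61 TPM for Prkaa1, the other catalytic subunit of AMPK.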

How the data were processed

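Total RNA-seq was measured in 3 libraries of 1 group, with replicate numbers from the labels. The authors ran featureCounts 1.4.6-p4 (strand setting 1, pairs only if both ends mapped, GENCODE M13), and deposited its raw counts, per the file headers. The labels name mm10 as the build. Multi-mapping fragments were not requested, so near-identical copies may be undercounted.

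Symbols and biotypes came from GENCODE M21 by identifier (50376 of 50600 named). TPM were computed from counts and the deposited exon lengths. Opposite-strand classes were made from the deposited coordinates with bedtools 2.31.1, using 5 kb. Variation between libraries was tested per gene by a Poisson chi-square test (Benjamini-Hochberg, 0.05) over 10662 genes kept by filterByExpr, with TMM in edgeR 4.0.16 and DESeq2 1.42.0 size factors as an alternative. It compares these libraries, not conditions. Data were simulated on 10662 genes with Poisson counting error alone. In these data the test called 55% of 100 genes changed 1.5-fold, 99% of 100 changed 3-fold and 0.105% of unchanged genes. These shares do not cover spread between biosamples. Count ratios have exact Clopper-Pearson 95% intervals. Since copies from PCR count separately, intervals and the floor of 3 counts cover counting error only. Library depth was 2510319 to 4305077 counts.

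The members, gene lists and pairs were chosen with earlier results of these data known, and the promoter motifs after the levels were seen. Named were all members and, of each further list, the 3 highest genes and those with 0 counts (1 gene is not reported here), with Tfeb, Tfe3, Mitf, Mtor and Prkaa1 added after their values were seen. Alternatives covered scaling, filters, thresholds, pseudocount and leaving out each library.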

Additional observations from a re-analysis of the deposited data

How the results depend on the processing

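The count of members called variable between libraries was 14 of 28, with the share of all genes tested at 62.4%. With TMM factors over genes without exon overlap it fell to 7, and that share to 53.6%. At an adjusted p of 0.01 it was 7, and the share of all genes was not computed there. Leaving out 1 library gave 12 without replicate 1 (60.8% of all genes), 7 without replicate 2 (49.7%) and 8 without replicate 3 (28.1%). DESeq2 size factors gave 10 (58.1%). With no filter on low counts it was 18 of 33 (42.6%), and with at least 30 summed counts 14 of 29 (58.8%). The count of members at 1 TPM or more in every library (29) was 14 at a threshold of 5 TPM, and 29 to 31 when a library was left out. The median member level (8.68 TPM) was 19.1 with TPM over protein-coding genes and 40.48 with TPM over protein-coding genes without exon overlap, so the TPM values rest on the genes included in the total. Between scalings the median log2 ratio of replicate 3 to 2 over all genes with 30 counts moved. It was −1.31 with TPM, −0.16 with TMM and 0.17 with TMM over genes without exon overlap. For the members it was −1.505, −0.35 and −0.027. Atg4d and Atg7 were higher in replicate 3 than in replicate 2 in all 6 scalings tried. This follows from their near-equal counts and the smaller size each scaling gave replicate 3, so it adds no support. Of the 19 ratios, 16 to 18 had 1 direction when a library was left out, and without length correction Atg13 to Rb1cc1 reversed to −0.57 and 11 others moved by more than their SD, among them Map1lc3b to Gabarap from −2.31 to −0.29, Atg14 to Uvrag from −0.57 to −1.95 and Atg13 to Atg101 from 0.74 to 2.55. With a pseudocount of 1 TPM 4 ratios moved as much. Members with few counts (Atg10, Atg4c, Map1lc3a, Gabarapl1) are limited by depth. No paired analysis was possible because the series has 1 group.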
